A study of Mus musculus with 20 samples.

Results

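Glycolysis and the response to low oxygen were followed through 35 listed genes in whole brains of neonatal mice. Of these, 14 encode glycolytic enzymes, 6 serve glucose entry, pyruvate and lactate, 7 encode the hypoxia-inducible factors (HIFs) or the proteins that regulate them, and 8 are genes known to be induced by HIFs. They were found on the array by gene symbol, without regard to their signals, but the list was drawn up with earlier results of these data known. The platform annotation named 33 of the 35 genes, against 18194 genes with 1 symbol in all, and gave them 80 of the 45101 probe sets. Gpi1 and Eno1 are not named there and were not analysed here. Gapdh was present only as 3 control probe sets, so 77 probe sets of 32 genes entered the test across the array.

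RNA came from whole brains of untreated Hdac4KO mice and their WT littermates at postnatal day 3 (P3), 10 arrays per genotype and by the labels 5 per sex and genotype. Hdac4KO mice were homozygous for the Hdac4 knock-out allele, obtained by intercrossing heterozygotes, and both genotypes shared the B6CBAF1/OlaHsd background. No Cre or tissue-restricted deletion is named in the labels. HDAC4 is a class IIa histone deacetylase that represses transcription through partner factors such as MEF2, and the array comparison asked which transcripts differ when it is absent. The values are log2 signals, so a difference of 1 would be a doubling. A probe set is a group of short probes against a stretch of a transcript, and a gene can have several.

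Glycolysis splits glucose to pyruvate in the cytosol. Lactate dehydrogenase then converts pyruvate to lactate and back, and monocarboxylate transporters carry both across membranes. The neonatal brain burns glucose together with lactate and ketone bodies, and its neurons take up glucose through a high-affinity transporter. HIFs are pairs of an oxygen-sensitive alpha subunit and the stable partner ARNT. In normal oxygen, prolyl hydroxylases mark the alpha subunit, VHL binds it and it is degraded, so HIF activity is set largely at the protein level. Stabilised HIF binds a core motif, ACGTG or GCGTG, and raises transcription of most glycolytic genes and of genes such as Ankrd37, Ddit4 and Bnip3.

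The form ACGTG was searched on either strand in the 250 bases before each transcription start that RefSeq gives for GRCm38.p6. Of the 35 genes, 32 had such a window and 19 of these (59.4%) held ACGTG, against 18.5% of the 27025 genes in the table. Counted by window, 22 of 44 windows of the listed genes held it, against 5444 of 32851 windows in all (16.6%). The other form of the core, GCGTG, occurred in 28.2% of all windows, and its share among the listed genes was not counted. The genes were listed by known biology, with earlier results of these data known, so the share describes the list and was not tested. The match is to letters alone and says nothing of binding in these brains. The 5 windows below are those of Hif1a, the gene with the probe set that passed the test, of Ankrd37 and P4ha2, the HIF-induced genes with the lowest and highest fold change at their brightest probe set, and of Ldha and Pgk1, glycolytic genes with several matches. Each is written 5′ to 3′ on the strand of the gene and ends at the base before the start. Capitals mark ACGTG or its reverse complement, and a run of 6 capitals is a palindrome that counts on both strands.
Hif1a, chr12:73907617-73907866, + strand: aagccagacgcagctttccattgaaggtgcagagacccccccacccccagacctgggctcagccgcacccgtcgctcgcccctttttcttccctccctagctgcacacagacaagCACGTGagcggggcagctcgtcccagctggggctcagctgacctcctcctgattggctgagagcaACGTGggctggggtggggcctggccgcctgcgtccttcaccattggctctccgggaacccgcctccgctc
Ankrd37, chr8:45999851-46000100, - strand: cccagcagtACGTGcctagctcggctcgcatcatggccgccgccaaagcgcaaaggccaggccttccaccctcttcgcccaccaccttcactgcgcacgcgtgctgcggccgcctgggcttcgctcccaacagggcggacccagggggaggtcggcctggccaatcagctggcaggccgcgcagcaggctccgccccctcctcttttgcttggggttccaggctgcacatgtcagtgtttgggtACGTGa
P4ha2, chr11:54100674-54100923, + strand: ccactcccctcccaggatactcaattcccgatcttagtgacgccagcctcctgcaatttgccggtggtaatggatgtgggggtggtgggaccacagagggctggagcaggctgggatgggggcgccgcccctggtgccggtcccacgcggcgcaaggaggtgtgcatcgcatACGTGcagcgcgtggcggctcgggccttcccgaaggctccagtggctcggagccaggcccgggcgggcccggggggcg
Ldha, chr7:46845554-46845803, + strand: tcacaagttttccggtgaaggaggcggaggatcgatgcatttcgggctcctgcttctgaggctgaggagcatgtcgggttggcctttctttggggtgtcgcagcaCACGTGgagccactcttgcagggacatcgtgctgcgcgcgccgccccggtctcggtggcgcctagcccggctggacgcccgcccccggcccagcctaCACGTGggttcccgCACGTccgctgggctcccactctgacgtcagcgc
Pgk1, chrX:106186850-106187099, + strand: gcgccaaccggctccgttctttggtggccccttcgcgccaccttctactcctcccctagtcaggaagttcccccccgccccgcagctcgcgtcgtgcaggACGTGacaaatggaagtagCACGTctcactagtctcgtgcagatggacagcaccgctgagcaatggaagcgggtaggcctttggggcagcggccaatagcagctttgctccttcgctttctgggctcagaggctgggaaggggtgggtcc
The Hif1a window thus held 3 matches in 2 stretches, the first of them 135 and 134 bases and the other 70 bases before the start. The Ldha window printed held 5 matches in 3 stretches, with the closest beginning 34 bases before the start. It was picked as the Ldha window with the most matches, and the other window of Ldha held no ACGTG. Pgk1 and Ankrd37 held 2 each, and P4ha2 held 1.

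Before the genes were read, the arrays were checked. Hdac4 itself, at its brightest probe set, averaged 6.53 ± 0.36 in Hdac4KO brains and 7.92 ± 0.16 in WT brains (SD, n = 10 each), a log2 fold change of -1.39 (limma, adjusted p = 6.28e-07), and the genotypes did not overlap. Hdac4KO replicate 10 had the highest Hdac4 signal of its genotype, 7.43, where the other 9 lay at or below 6.59, and WT replicate 8 had the lowest of its genotype, 7.54. In 3 arrays, Hdac4KO replicate 10 and WT replicates 5 and 9, the higher of the Xist and mean Y-linked signals went against the sex label. In Hdac4KO replicate 10, labelled male, both Xist (12.27) and the mean of Y-linked genes (6.95) were high, so only Xist went against its label. The difference between 3′ and 5′ signals of the actin and Gapdh controls, a measure of RNA integrity and labelling, was 0.22 ± 0.03 in Hdac4KO and 0.19 ± 0.03 in WT arrays (SD, n = 10 each, two-sided permutation test, p = 0.0835). Array medians lay between 6.26 and 6.32, and no pair of arrays held identical values. Each array is labelled as a separate sample, and by the study's methods each came from its own brain. Whether Hdac4KO replicate 10 holds RNA of a single brain was not tested.

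In the test across the array, 1 of the 77 probe sets passed in either direction (1.3%), a probe set of Hif1a that was lower in Hdac4KO brains. None was higher. Over all 45037 probe sets, limma called 474 higher (1.05%) and 453 lower (1.01%) at an adjusted p under 0.05. At an unadjusted p under 0.05, 9 of the 77 were higher (11.7%, against 9.93% of all probe sets) and 8 were lower (10.4%, against 8.10%), so the shares lay near those of the array as a whole. The methods' t-test with the same adjustment called 2.22% of all probe sets and, among the 77, the same Hif1a probe set and 1 of Slc2a3. No probe set of the listed genes had genotypes that did not overlap, a pattern seen in 0.0444% of all probe sets for higher and 0.0333% for lower signals. Without WT replicate 8 and Hdac4KO replicate 10 the calls over all probe sets numbered 157 higher and 170 lower, and without the 3 arrays that go against their sex label 174 and 241. In both cases the listed genes kept 0 higher and 1 lower call.

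**Figure D1:**
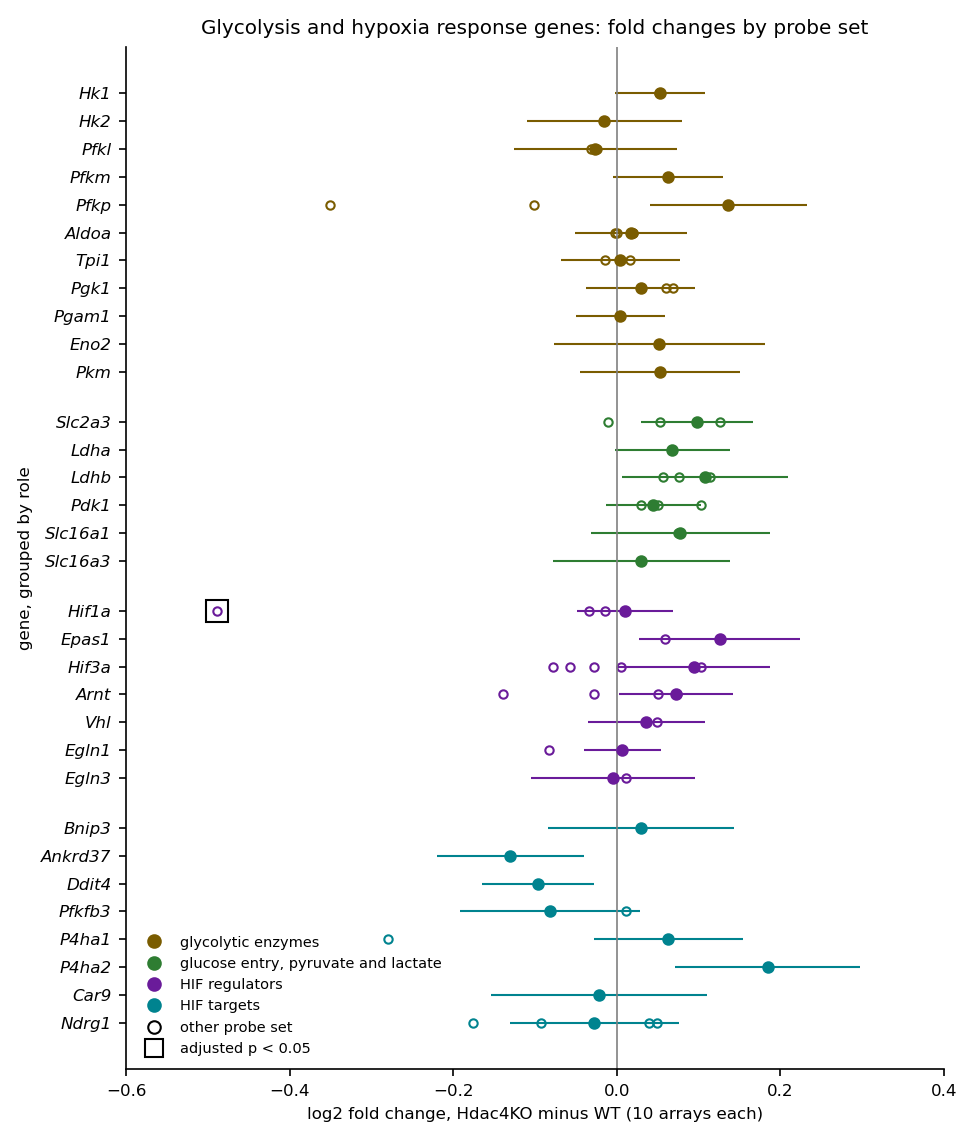
Log2 fold change, Hdac4KO minus WT, of each of the 77 probe sets, with genes down the page by role. Filled points are the brightest probe set of a gene with its 95% interval, open circles are its other probe sets, and the square marks the Hif1a probe set with an adjusted p under 0.05 at -0.49. Filled points lie between -0.13 and 0.18.

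At the brightest probe set of each gene, chosen by its mean over all 20 arrays, none of the 32 genes passed, where 1.45% of 18193 genes were called higher and 0.517% lower. The fold changes were small. They ran from -0.13 for Ankrd37 to 0.18 for P4ha2, 4 genes lay above 0.1 and 1 below -0.1. The 95% intervals of these 32 probe sets together spanned -0.22 to 0.30, so a change beyond a Hdac4KO over WT ratio of 0.859 to 1.23 lay outside every interval. The median was 0.03 with 24 of 32 genes above 0 (75%), against a median of 0.01 and 57.2% above 0 over all genes. Standard errors of these probe sets ran from 0.0225 to 0.0634. At an unadjusted p under 0.05, 7 of 32 were higher and 2 lower, against 12.8% and 6.19% of all genes. Because RNA was taken from whole brains, fewer cells of a type and less RNA per cell cannot be told apart in any of these values.

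The glycolytic enzymes differed little between the genotypes. Of the 11 enzymes tested, 9 had a fold change above 0 at the brightest probe set, with a median of 0.03, and the 24 probe sets of the enzymes gave 0 calls in either direction. Hexokinase traps glucose in the cell, and Hk1, its main form in brain, ran from 11.43 through a median of 11.51 to 11.58 in Hdac4KO arrays, against 11.38, 11.45 and 11.55 in WT arrays. The ranges overlapped over most of their length, with a fold change of 0.05 ± 0.03 (SE, adjusted p = 0.30). Hk2, the inducible hexokinase, had a fold change of -0.02. 

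Phosphofructokinase, the committed step of the pathway, is built from the products of Pfkl, Pfkm and Pfkp. The 3 Pfkl probe sets gave fold changes of -0.02 to -0.03 and Pfkm gave 0.06 (adjusted p = 0.312). Pfkp had the largest positive value of the glycolytic genes and also the lowest, at different probe sets. Its brightest probe set ran from 11.19 through a median of 11.36 to 11.60 in Hdac4KO arrays, against 11.13, 11.27 and 11.36 in WT arrays, a fold change of 0.14 ± 0.05 (SE, adjusted p = 0.116). The Hdac4KO values were above the WT mean in 9 of 10 arrays, yet the groups overlapped. The next brightest Pfkp probe set, singled out after its values were seen, ran from 8.57 through 9.28 to 9.65 in Hdac4KO arrays, against 8.97, 9.65 and 9.85 in WT arrays. There the fold change was -0.35 ± 0.13 (SE, adjusted p = 0.154) and 9 of 10 Hdac4KO arrays lay below the WT mean. The third Pfkp probe set, below the median signal in all 20 arrays, gave -0.10. Pfkp therefore had no single direction on this array.

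From aldolase to Gapdh, the differences were near 0. The 5 probe sets of Aldoa, which encodes the aldolase of muscle that brain also uses, gave fold changes between -0.00 and 0.02, each with an adjusted p of 0.823 or more. Tpi1, which encodes triose phosphate isomerase, gave -0.01 to 0.02 over 3 probe sets. Gapdh, the enzyme that reduces NAD and a common loading control, was read from its control probe sets. At the 3′ end it averaged 13.45 ± 0.03 in Hdac4KO arrays and 13.44 ± 0.04 in WT arrays (SD, n = 10 each), a difference of 0.02 (two-sided permutation test of 100000 resamples, p = 0.271). The middle probe set averaged 13.36 ± 0.04 in Hdac4KO arrays and 13.34 ± 0.05 in WT arrays (permutation p = 0.443), and the 5′ probe set 13.54 ± 0.04 in Hdac4KO arrays and 13.53 ± 0.04 in WT arrays (permutation p = 0.597, also the adjusted p of all 3). The genotypes overlapped at each.

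The last enzymes of the pathway had fold changes of 0.00 to 0.07, and none passed. Pgk1, whose product makes ATP from the triose intermediate, gave 0.03, 0.07 and 0.06 at its 3 probe sets, with 9 of 10 Hdac4KO arrays above the WT mean at the dimmer 2 and an adjusted p of 0.337 or more at each. Pgam1 (phosphoglycerate mutase) gave 0.00. Eno2, the enolase of neurons, ran from 10.82 through 11.08 to 11.30 in Hdac4KO arrays, against 10.83, 11.04 and 11.21 in WT arrays, with a fold change of 0.05 ± 0.06 (SE, adjusted p = 0.720). Pkm, which encodes the muscle-type pyruvate kinase, gave 0.05 ± 0.05 (SE, adjusted p = 0.601). The 95% intervals of the 17 glycolytic genes at their brightest probe sets, transporters and lactate genes included, lay between -0.13 and 0.23, which is a Hdac4KO over WT ratio of 0.916 to 1.175.

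The genes of glucose entry, pyruvate and lactate all had fold changes above 0 at their brightest probe set. The 6 values ran from 0.03 to 0.11 with a median of 0.07, and none of the 16 probe sets passed. Slc2a3, the glucose transporter of neurons, came closest. Its brightest probe set ran from 11.58 through a median of 11.64 to 11.80 in Hdac4KO arrays, against 11.50, 11.56 and 11.66 in WT arrays, a fold change of 0.10 ± 0.03 (SE, adjusted p = 0.116). The next brightest, singled out after its values were seen, ran from 10.36 through 10.45 to 10.60 in Hdac4KO arrays, against 10.30, 10.33 and 10.50 in WT arrays, a fold change of 0.13 ± 0.03 (SE, adjusted p = 0.0577). At both probe sets every one of the 10 Hdac4KO arrays was above the WT mean, and the groups overlapped. The second of them passed in the methods' t-test (adjusted p = 0.0469) and when dim probe sets were removed (adjusted p = 0.0268). The remaining 2 Slc2a3 probe sets were below the array median in all 20 arrays and gave 0.05 and -0.01.

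Lactate dehydrogenase is a tetramer of the products of Ldha and Ldhb, of which the Ldha form favours lactate and the Ldhb form pyruvate. Ldha ran from 11.58 through 11.66 to 11.81 in Hdac4KO arrays, against 11.51, 11.61 and 11.74 in WT arrays, a fold change of 0.07 ± 0.03 (SE, adjusted p = 0.298). The 4 probe sets of Ldhb gave 0.11, 0.11, 0.06 and 0.08, with 8 or 9 of 10 Hdac4KO arrays above the WT mean at each and the lowest adjusted p at 0.247. These probe sets read the same transcript and are not separate evidence. Pdk1, whose product switches off pyruvate dehydrogenase, gave 0.03 to 0.10 over 4 probe sets, with an adjusted p of 0.292 or more. Slc16a1, the transporter of lactate and ketone bodies across the blood-brain barrier, ran from 10.95 through 11.22 to 11.37 in Hdac4KO arrays, against 10.91, 11.12 and 11.26 in WT arrays, a fold change of 0.08 ± 0.05 (SE, adjusted p = 0.467). Slc16a3, the lactate exporter of glycolytic cells, was below the array median in all 20 arrays and gave 0.03.

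Hif1a encodes the alpha subunit of HIF that is present in most cells, and it had the single call among the listed genes. The call was at probe set 1448183_a_at, the third brightest of its 4. The signal there was 4.44 at the lowest, 4.87 at the median and 5.20 at the highest in Hdac4KO arrays, against 4.94, 5.36 and 5.84 in WT arrays. All 10 Hdac4KO arrays lay below the WT mean and 8 lay below the lowest WT array, while Hdac4KO replicates 1 and 6 overlapped the WT range. The means were 4.88 ± 0.19 in Hdac4KO arrays and 5.37 ± 0.25 in WT arrays (SD, n = 10 each). The log2 fold change was -0.49 ± 0.09 (SE, 95% interval -0.68 to -0.30, limma adjusted p = 0.0162), a ratio of 0.712. The study also measured Hif1a by Taqman qPCR, as a gene lowered on the arrays, and detected no change between the genotypes.

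The other 3 probe sets of Hif1a did not share that difference. The brightest, 1427418_a_at, ran from 11.31 through 11.39 to 11.50 in Hdac4KO arrays, against 11.31, 11.39 and 11.48 in WT arrays. It gave a fold change of 0.01 ± 0.03 (SE, adjusted p = 0.901) with a 95% interval of -0.05 to 0.07, and the ranges of the genotypes nearly coincided. Probe set 1416035_at ran from 8.62 through 8.93 to 9.21 in Hdac4KO arrays, against 8.75, 8.87 and 9.12 in WT arrays, a fold change of -0.01 ± 0.08 (SE, adjusted p = 0.955). Its Hdac4KO values split into a lower and an upper cluster, and WT arrays filled the gap between them. The dimmest, 1431981_at, gave -0.03 ± 0.06 (SE, adjusted p = 0.833). The probe set that passed was below the array median in all 20 arrays, so a filter on dim probe sets leaves it out.

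**Figure D2:**
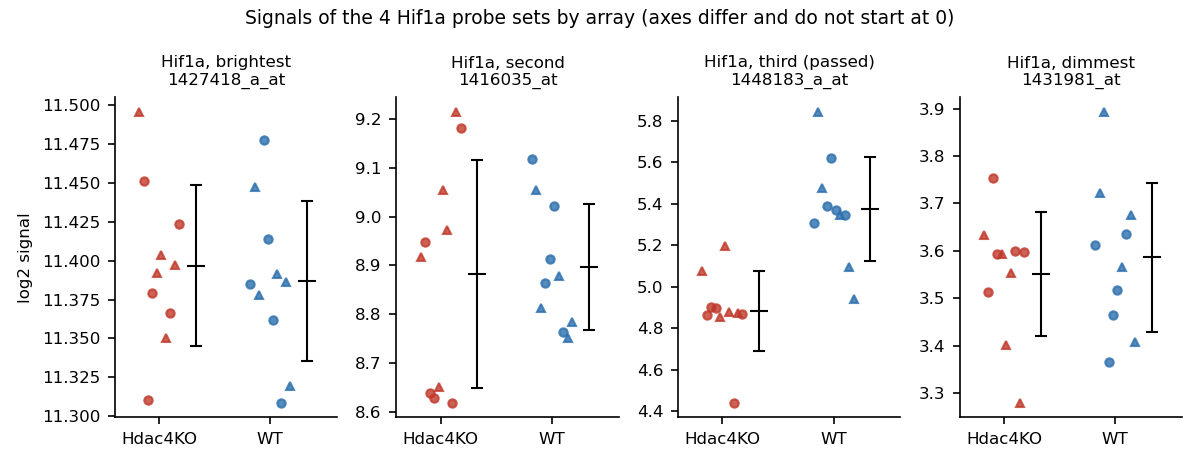
Log2 signals of the 4 Hif1a probe sets in each array, brightest to the left, with Hdac4KO left of WT in each panel. Circles are arrays labelled male and triangles arrays labelled female, and the bars are the mean and SD of 10 arrays. Only the third panel, 1448183_a_at, separates most Hdac4KO arrays (mean 4.88) from WT arrays (mean 5.37).

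With the 3′ minus 5′ signal of the control genes as a covariate, the fold change of 1448183_a_at was -0.41 and its adjusted p 0.0823. It passed in the other 10 alternatives that keep it and without each array in turn, where the fold change ran from -0.54 to -0.44. Without WT replicate 8 and Hdac4KO replicate 10 it was -0.49 (adjusted p = 0.0404), and without the 3 arrays that go against their sex label -0.49 (adjusted p = 0.0307). The part of RNA integrity in the result was not tested beyond that covariate.

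The remaining regulators of HIF did not pass. Epas1, the alpha subunit of endothelial cells and of erythropoietin-producing cells, ran from 10.36 through 10.55 to 10.70 in Hdac4KO arrays, against 10.32, 10.40 and 10.55 in WT arrays, a fold change of 0.13 ± 0.05 (SE, adjusted p = 0.156). Hif3a, an alpha subunit with inhibitory splice forms, gave 0.09 at the brightest of 6 probe sets (adjusted p = 0.275), and its other 5, all below the array median in every array, ran from -0.08 to 0.10. Arnt, the stable partner, gave 0.07 at its 2 bright probe sets (adjusted p of 0.256 and 0.355). A dim Arnt probe set, 1449696_at, singled out after its values were seen, gave -0.14 ± 0.05 (SE, adjusted p = 0.126).

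Transcripts of the proteins that destroy the alpha subunit were flat at their brightest probe sets. Vhl, the substrate receptor of the ubiquitin ligase, gave 0.04 and 0.05 at its 2 probe sets. Egln1, the main prolyl hydroxylase, had the smallest error of the listed genes and at its brightest probe set gave 0.01 ± 0.02 (SE, adjusted p = 0.913). Its other probe set, singled out after its values were seen, gave -0.08 ± 0.03 (SE, adjusted p = 0.186). Egln3, a hydroxylase that HIF itself induces, gave -0.00 and 0.01. Over the 7 regulators the median at the brightest probe set was 0.04, with 6 of 7 above 0.

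The genes induced by HIF went both ways. Of 8 such genes, 3 lay above 0 and 5 below 0 at the brightest probe set, with a median of -0.02, and none of their 14 probe sets passed. P4ha2, which encodes a collagen prolyl hydroxylase, had the highest value. Its signal ran from 6.62 through a median of 6.73 to 6.96 in Hdac4KO arrays, against 6.19, 6.58 and 6.71 in WT arrays. The fold change was 0.18 ± 0.05 (SE, adjusted p = 0.0757), a ratio of 1.14. Each of the 10 Hdac4KO arrays was above the WT mean, with overlap between the groups, and the adjusted p was 0.0420 when dim probe sets were left out. P4ha1, which encodes the other common form of that enzyme, gave 0.06 at its brightest probe set (adjusted p = 0.480). Its other probe set, below the array median in all arrays and singled out after its values were seen, ran from 4.68 through 4.94 to 5.15 in Hdac4KO arrays, against 4.63, 5.12 and 5.62 in WT arrays. There the fold change was -0.28 ± 0.10 (SE, adjusted p = 0.120), with each of the 10 Hdac4KO arrays below the WT mean.

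Ankrd37, a gene sharply induced in low oxygen, ran from 6.81 through a median of 6.93 to 7.06 in Hdac4KO arrays, against 6.86, 7.08 and 7.19 in WT arrays, a fold change of -0.13 ± 0.04 (SE, adjusted p = 0.112). Ddit4, whose product restrains mTORC1 under stress, ran from 10.37 through 10.41 to 10.53 in Hdac4KO arrays, against 10.33, 10.56 and 10.59 in WT arrays, a fold change of -0.10 ± 0.03 (SE, adjusted p = 0.120). At both genes 9 of 10 Hdac4KO arrays lay below the WT mean and the groups overlapped. Without WT replicate 6, the lowest WT array for Ddit4, the fold change of Ddit4 was -0.12 and its adjusted p 0.0430. That array was singled out from these same values. Of the 20 fits that each left out 1 array, Ddit4 passed only in this 1, and its adjusted p ran up to 0.199.

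Pfkfb3, which makes the activator of phosphofructokinase, gave -0.08 ± 0.05 (SE, adjusted p = 0.444) at the brighter of 2 probe sets. Bnip3, a mitochondrial protein of mitophagy, gave 0.03 ± 0.05 (SE, adjusted p = 0.833). Car9, the carbonic anhydrase used as a marker of hypoxia, was below the array median in all 20 arrays and gave -0.02. Ndrg1, a stress-induced gene needed for peripheral myelin, gave -0.03, 0.04, 0.05, -0.18 and -0.09 at its 5 probe sets from the brightest to the dimmest. The value of -0.18, at 1423413_at and singled out after it was seen, came from signals of 7.58 through 7.71 to 7.97 in Hdac4KO arrays, against 7.67, 7.90 and 8.08 in WT arrays (SE 0.05, adjusted p = 0.0706). It passed with dim probe sets left out (adjusted p = 0.0384).

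**Figure D3:**
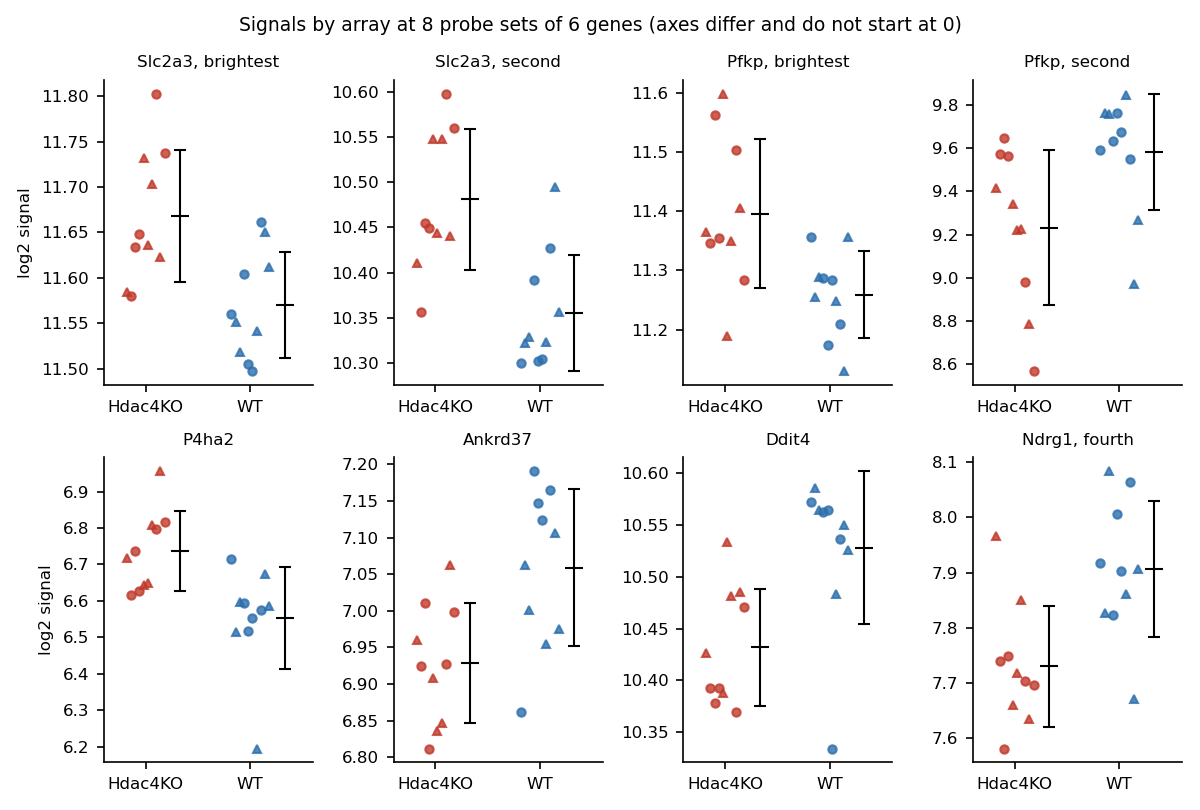
Log2 signals by array at 8 of the probe sets described, of 6 genes, Hdac4KO left of WT. Circles are arrays labelled male, triangles arrays labelled female, and bars the mean and SD of 10 arrays. The genotypes overlap in every panel, and the panels with lower Hdac4KO means are the second Pfkp, Ankrd37, Ddit4 and the fourth Ndrg1 probe set.

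Set side by side, the 17 glycolytic genes had a median fold change of 0.05 and the 15 HIF regulators and targets a median of 0.01, against 0.01 over all genes. Of the glycolytic genes, 15 lay above 0, with a range of -0.03 to 0.14. Of the HIF genes, 9 of 15 lay above 0, with a range of -0.13 to 0.18. Each array was also given the median deviation of a set from the mean of each gene over 20 arrays. For the glycolytic set this ran from -0.05 through 0.02 to 0.09 in Hdac4KO arrays, against -0.08, -0.02 and 0.08 in WT arrays. For the HIF set it ran from -0.07 through 0.00 to 0.10 in Hdac4KO arrays, against -0.06, -0.01 and 0.03 in WT arrays. The genotypes overlapped in both sets, and the distance between the medians was below the spread of single arrays within genotypes (pooled SD 0.05 and 0.04). That spread is not the error of a median of 10 arrays, and the difference between the genotypes was not tested. In the HIF set Hdac4KO replicates 9 (0.10) and 10 (0.09) lay above the highest WT array (0.03), as did replicate 1 (0.04). With the mean or the most variable probe set of each gene in place of the brightest, the glycolytic median stayed at 0.05 and the HIF median was -0.02, so the HIF set had no stable sign.

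**Figure D4:**
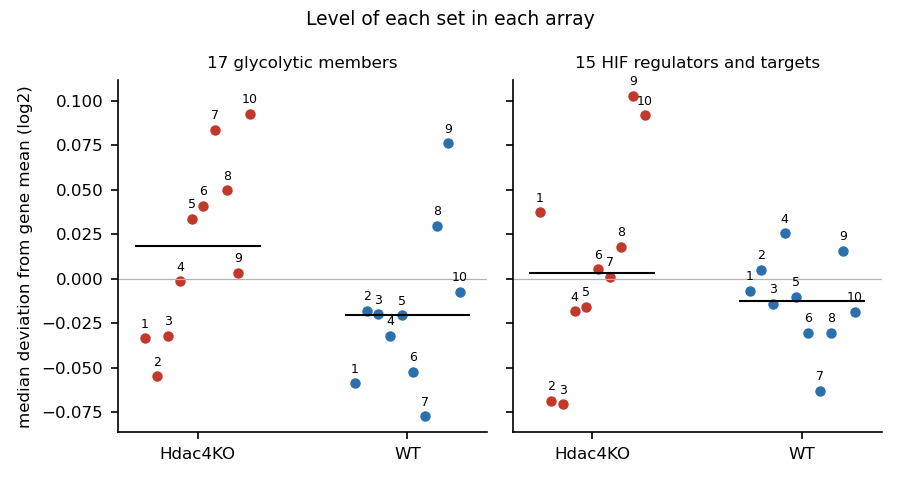
Median deviation of the 17 glycolytic genes and of the 15 HIF regulators and targets from the gene means, in log2 units, for each array, Hdac4KO left of WT. Numbers are the replicate numbers and lines the medians of 10 arrays, which are 0.02 for Hdac4KO and -0.02 for WT arrays in the glycolytic panel and 0.00 and -0.01 in the HIF panel.

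Several genes gave different answers at different probe sets. Of the 20 genes with more than 1 probe set, 12 (60%) had fold changes of both signs, against 58.2% of the 9010 such genes on the array. The distance between the highest and lowest fold change of a gene had a median of 0.07, against 0.10 over those 9010 genes. It exceeded 0.3 for 3 of 20 (15%), against 7.79%. These were Hif1a (0.50), Pfkp (0.49) and P4ha1 (0.34), named after their values were seen. In each the lower value came from a dimmer probe set, and in the list as a whole 6 of the 8 probe sets that were lower at an unadjusted p under 0.05 were not the brightest of their gene. The same held for 2 of the 9 that were higher. Over all genes with 1 symbol the shares were 63.3% of those lower and 38.4% of those higher. Pfkp and Arnt had probe sets past that mark in both directions. Names ending in _s_at or _x_at mark probes that can match transcripts of more than 1 gene. They made up 17 of the 77 probe sets, of 8 genes, Slc2a3 and Ldhb among them, and their fold changes of -0.09 to 0.13 are uncertain to that extent.

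**Figure D5:**
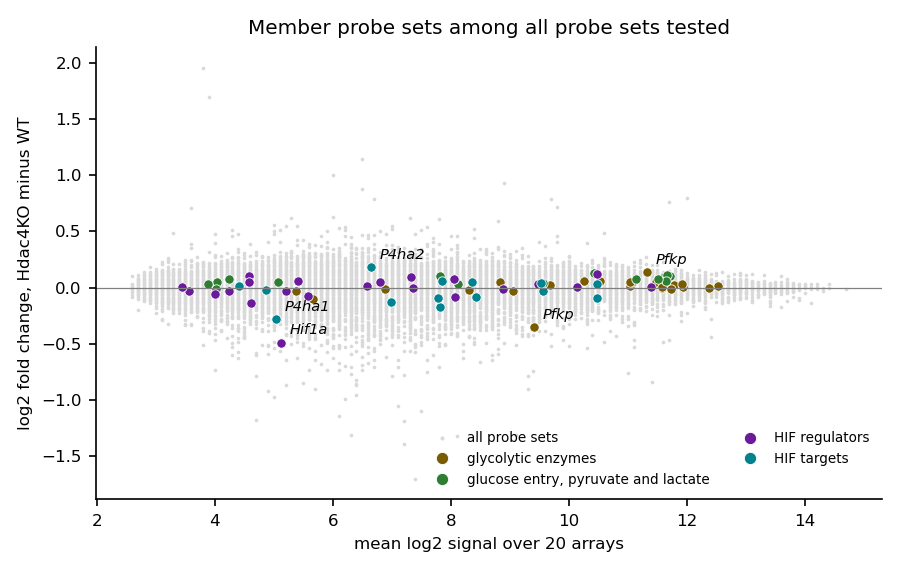
Log2 fold change, Hdac4KO minus WT, against mean log2 signal over 20 arrays. Grey points are all 45037 probe sets rounded to a grid and coloured points the 77 probe sets by role. Hif1a at -0.49 and P4ha1 at -0.28 sit at low signal, the second Pfkp probe set at -0.35 at a middle signal, and most glycolytic genes lie close to 0 at high signal.

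The genes were also read by the motif printed above. The 19 tested genes with ACGTG in a window had a median fold change of 0.02 at the brightest probe set, from -0.13 to 0.18, and 13 lay above 0. The 10 tested genes with a window but no ACGTG had a median of 0.05, from -0.03 to 0.14, and 9 lay above 0. Of these 10, Pfkp, Hk1, Hif3a, Arnt, Ldhb, Pdk1 and Pfkl held the other form of the core, GCGTG, in a window. Vhl, Eno2 and Tpi1 held neither form. The split is thus by ACGTG alone and does not separate genes with and without GCGTG. Ldha, with 5 matches in the window printed, stood at 0.07 and Ankrd37, with 2, at -0.13, so genes with several matches lay on both sides of 0.

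Other genes of the same pathways were read from 2 lists. Of 35 other glycolysis genes, 31 were measured by 55 probe sets, of which 2 passed as higher and 0 as lower, with a median of 0.01 at the brightest probe sets. Over all probe sets, 1.05% were called higher and 1.01% lower. Pfkfb2, which encodes a kinase and phosphatase that sets the activator of phosphofructokinase, rose by 0.16 ± 0.03 (SE, adjusted p = 0.0198). It ran from 8.44 through 8.55 to 8.63 in Hdac4KO arrays, against 8.31, 8.38 and 8.52 in WT arrays, and 7 of 10 Hdac4KO arrays lay above the highest WT array. Its 3 dimmer probe sets gave -0.10, 0.01 and 0.14 and did not pass. Eno3, the enolase of muscle, rose by 0.23 ± 0.05 (SE, adjusted p = 0.0304), with 6.35, 6.58 and 6.72 as lowest, median and highest in Hdac4KO arrays, against 6.18, 6.33 and 6.63 in WT arrays. For both genes each of the 10 Hdac4KO arrays was above the WT mean. Slc2a1, the glucose transporter of the blood-brain barrier, was named after its values were seen. It gave 0.15, 0.15 and 0.14 at its 3 probe sets, with adjusted p of 0.0604, 0.0566 and 0.0878, and did not pass.

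Of 41 other HIF pathway genes, 36 were measured by 79 probe sets, of which 2 passed as higher and 1 as lower, with a median of 0.01. The shares over all probe sets were again 1.05% higher and 1.01% lower. Cul2, the scaffold of the VHL ubiquitin ligase, rose by 0.18 ± 0.04 (SE, adjusted p = 0.0233) at its dimmer probe set and gave 0.02 at its brightest (adjusted p = 0.717). Crebbp, a coactivator that binds HIF, had probe sets past the threshold in both directions. The probe set 1434633_at gave 0.16 ± 0.03 (SE, adjusted p = 0.0182) and the dim 1459804_at gave -0.52 ± 0.12 (SE, adjusted p = 0.0301), while the brightest gave -0.16 (adjusted p = 0.427). In the study's Taqman qPCR Crebbp was unchanged. Vegfa, the vascular growth factor that HIF induces, was named after its values were seen and at the brightest probe set gave -0.11 ± 0.05 (SE, adjusted p = 0.174). Its other probe set gave -0.07 (limma, adjusted p = 0.508). By mass spectrometry the study found an acetylated VEGF peptide raised in Hdac4KO brains, and it could not tell more acetylation from more VEGF protein. The arrays read RNA only.

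The interaction of genotype and labelled sex gave 0 calls among the 77 probe sets after adjustment, as it did over all 45037 (0.00%), with 2 of 77 (2.6%) at an unadjusted p under 0.05, against 5.35% of all. The lowest adjusted p was 0.917. The groups follow the sex labels, which 3 arrays go against when Xist and Y-linked signals are compared. Without those arrays the interaction also gave 0 calls among the listed genes. The Hif1a probe set that passed in the pooled fit gave -0.37 in arrays labelled female and -0.61 in arrays labelled male (adjusted p of 0.331 and 0.103), and no listed gene passed within either label. These values include the 3 arrays.

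Markers of brain cell types were read for the same arrays at the brightest probe set of each gene. All 11 neuronal markers were above the array median in all 20 arrays and had a median fold change of -0.00. Of their 24 probe sets 3 were called, all lower in Hdac4KO brains, against 1.01% of all probe sets called lower and 1.05% higher. The 3 were of Nefl (-0.28, adjusted p = 0.0427), Slc17a6 (-0.52, adjusted p = 0.0182) and Syt1 (-0.38, adjusted p = 0.0310), of which the Nefl probe set was the brightest of its gene. The brightest Syt1 probe set went the other way, at 0.14 (limma adjusted p = 0.0504). By Taqman qPCR the study detected no change in Syt1. At an unadjusted p under 0.05, 5 of the 24 probe sets were higher and 6 lower, against 9.93% and 8.10% of all probe sets. The median was -0.02 for astrocytes and radial glia, where 1 of 36 probe sets was called. It was a dimmer probe set of Nes, lower in Hdac4KO brains (-0.29, adjusted p = 0.0427). At an unadjusted p under 0.05, 10 of the 36 were lower and 2 higher. Medians were -0.03 for the oligodendrocyte lineage, -0.01 for endothelial and mural cells and -0.05 for meninges and fibroblasts. Microglial markers stood at 0.13, with 1 of 14 probe sets called, Tmem119, higher in Hdac4KO brains. Their mean level ran from 7.30 to 7.69 in Hdac4KO arrays, against 7.23 to 7.50 in WT arrays. Markers of choroid plexus and ependyma stood at -0.13, with 1 of 11 called, Ttr, lower in Hdac4KO brains, and a mean level of 7.73 to 7.99 in Hdac4KO arrays, against 7.79 to 8.21 in WT arrays. Of the erythroid markers 3 of the 4 measured were below the array median in all arrays. The part of these cell types in the values above was not tested.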

How the data were processed

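Whole-brain RNA of 10 Hdac4KO and 10 WT neonates was profiled. By the labels and the methods, cRNA was prepared by the authors from 200 ng RNA with the 3′ IVT Express kit and hybridized to Affymetrix mouse genome arrays (430 series), and chips of poor quality on the RACE software were dropped. The deposited values are log2 signals per probe set, as the authors gave them. How probes were summarised and normalized is not stated in the sources at hand. Array medians are nearly equal, so a value is relative to the other transcripts of its array.

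The table holds 45101 probe sets, and the test was run on the 45037 that are not among its 64 controls. The platform annotation gives 34945 probe sets 1 symbol, 932 several and 9160 none, and only those with 1 symbol were named. The main comparison used limma 3.58.1 (lmFit, eBayes) under R 4.3.3 without covariates, two-sided, with Benjamini-Hochberg adjustment over all 45037. A call is an adjusted p under 0.05. The 2-tailed t-test that the methods name was an alternative, at a false discovery rate of 0.05. Standard errors and intervals are those of limma, and their precision is limited by the number of arrays. The interaction with sex came from a fit of 4 groups. The Gapdh and 3′ minus 5′ controls were compared by permutation with 100000 resamples. The fits were tested on simulated data.

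The listed genes, the other lists and the tests were chosen with earlier results of these data known. By the rule for named genes, every listed gene was given by its brightest probe set, full values were given for those that passed, for Hif1a and for Gapdh, and genes of the other lists were named if they passed. Most genes and probe sets outside the rule are marked as chosen after their values were seen. Array ranges at the brightest probe set go beyond it, unmarked, for Hk1, Pfkp, Eno2, Slc2a3, Ldha, Slc16a1, Epas1, P4ha2, Ankrd37 and Ddit4. So do the array counts at dimmer probe sets of Pgk1 and Ldhb. Promoter windows came from RefSeq on GRCm38.p6. The alternatives were other tests, covariates, normalizations, filters, weights and samples, each array left out in turn included.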

Additional observations from a re-analysis of the deposited data

Results flagged for a closer look

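In 80 groups of 10 arrays, those of 40 probe sets, an array was marked where it lay far from the others of its genotype by Dixon's criterion. This marked 4 groups, and chance alone marks about 1 group in 20. For Hif1a at 1448183_a_at, Hdac4KO replicate 8 was lowest at 4.439, where the next Hdac4KO array had 4.855 and the highest 5.198. Without that array the fold change was -0.44 (adjusted p = 0.0343). For Ldhb at 1416183_a_at, a probe set singled out after its values were seen, Hdac4KO replicate 2 was lowest at 11.47, where the next array had 11.67. For Ddit4, WT replicate 6 was lowest at 10.33, where the next WT array had 10.48. For P4ha2, WT replicate 7 was lowest at 6.195, where the next WT array had 6.516 and the highest 6.714. No interaction with sex was marked.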

How the results depend on the processing

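Over all probe sets, 474 were higher and 453 lower. With the 3′ minus 5′ signal as a covariate the counts were 23 and 20, without WT replicate 8 and Hdac4KO replicate 10 they were 157 and 170, without the 3 arrays against their sex label 174 and 241, and with array weights 789 and 712. The lower count was 267 with Welch's test, and the higher count was 996 with dim probe sets left out and 765 with a trended and robust eBayes. Leaving out each array in turn gave 184 to 991 higher and 167 to 724 lower. The cause of these moves was not tested.

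Among the 77 probe sets, the count higher was 0 and became 1 with the methods' t-test, the trended and robust eBayes and array weights, each time Slc2a3, and 2 with dim probe sets left out (Slc2a3 and P4ha2). Of the 22603 probe sets that filter kept, 56 were of the listed genes, without the Hif1a probe set that passed. The count lower was 1 and became 0 with the 3′ minus 5′ covariate. Without each array in turn it was 1 to 3, and the count higher 0 to 1. It was 3 without WT replicate 9, 2 without WT replicate 6 or Hdac4KO replicate 1, and the count higher was 1 without WT replicate 9 or Hdac4KO replicate 2. The interaction gave 0 calls throughout.

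Replicate numbers did not pair the samples, since 1 of 10 same-numbered pairs had a correlation of deviations above 0.1 (range -0.15 to 0.16) and 1 of 10 WT arrays correlated best with its own number. With the replicate block, 308 probe sets were higher and 640 lower, and the 77 held 0 higher and 2 lower, the added call being the second Pfkp probe set (adjusted p = 0.0216).

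The glycolytic median ran from 0.04 to 0.06 and the HIF median from 0.00 to 0.03 without each array in turn. Values near 0 changed sign: Pgam1 was -0.00411 after quantile normalization and -0.0027 without WT replicate 8 and Hdac4KO replicate 10, the brightest Hif1a probe set -0.00163 without those 2, Egln1 -0.00101 after quantile normalization and Hk2 0.000376 with array weights. Without each array in turn, Car9 ran from -0.0465 to 0.0123, Egln3 from -0.0257 to 0.0265, the brightest Hif1a from -0.000949 to 0.02005, Hk2 from -0.0373 to 0.00729, the brightest Ndrg1 from -0.0419 to 5.54e-05, Pgam1 from -0.00403 to 0.0137, Slc16a3 from -0.00471 to 0.0489 and Tpi1 from -0.00714 to 0.0236. Signals below the array median, 21 of the 77 probe sets in all arrays, bound what dim probe sets can show.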
